A study of Mus musculus with 15 samples.

Results

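Deletion of Rbpj was examined in splenic regulatory T cells (Treg) that carry an active form of Notch1. The comparison rests on 7 of the 15 arrays of the series, chosen by the genotype in the sample titles. The 4 arrays called N1c below come from male mice of 6 weeks with the alleles Foxp3EGFPCre and R26N1c/N1c. The 3 arrays called N1c_RBPJdel come from mice of the same age and sex that carry both of these and, in addition, RBPJfl/fl, the floxed Rbpj alleles that Cre turns into RBPJ∆/∆. All 7 arrays therefore share the active Notch1 and the Cre, and no treatment is given. The other arrays are 4 of Foxp3EGFPCre mice, called control, and 4 of Foxp3EGFPCre RBPJ∆/∆ mice, called RBPJdel. They entered the fit to estimate the spread between arrays, and their levels are set beside the others without a test. An inbred strain is not given in the sources used here.

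Cells positive for CD3, TCRbeta, CD4 and the GFP of the Foxp3 allele were sorted, and cells bearing CD8, B220, CD11b, CD11c or Gr1 were left out. Each array took cells pooled from more than 1 mouse, and the RNA from 40000 to 50000 of them was amplified for Affymetrix gene-level exon-probe arrays (Mouse Gene 1.0 ST), which read a transcript through probes along its exons. The sorter was a MoFlo for N1c and a FACSAria for N1c_RBPJdel, so that sorter and genotype cannot be told apart in any result below. The model has further limits. Foxp3 control drives the Cre, so that Rbpj is lost only in cells that have expressed Foxp3, the active Notch1 comes from the Rosa26 locus and not from a ligand, and pooling hides the spread between single mice. Values from sorted populations cannot tell fewer cells of a type from less RNA per cell.

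Notch receptors are cut when they meet a ligand on a neighbouring cell, and the intracellular part moves to the nucleus. There it joins RBPJ, a DNA-binding protein that represses its target genes alone and activates them in a complex with the Notch intracellular domain and a Mastermind protein. Hes and Hey repressors, the ubiquitin ligase Deltex1 (Dtx1) and the feedback inhibitor Nrarp are classical targets of this complex. Signals of Notch that bypass RBPJ have also been described in T cells. The design asks which part of the expression state of N1c cells is lost when Rbpj is lost as well.

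The promoters of 4 genes on which the results turn are shown because RBPJ binds DNA through a short core, TGGGAA or, on the other strand, TTCCCA. Dtx1 and Nrarp are the Notch targets past the test that have an entry in the RefSeq promoter table (GRCm38.p6), Cd22 is the gene with the largest fall, and Fgl2 one with a large rise. Cd22 and Fgl2 were the 2 with a match among 6 leading genes whose windows were read, and Atp5md, Fhdc1, Rln3 and Nrp1 held none. Of the 15 with an entry among the 30 largest falls and rises, 3 held a match. Each sequence holds the 250 bases before the listed start, 5′ to 3′ on the strand of the gene, with any match to the core in capitals.
Dtx1, chr5:120711670-120711919, minus strand: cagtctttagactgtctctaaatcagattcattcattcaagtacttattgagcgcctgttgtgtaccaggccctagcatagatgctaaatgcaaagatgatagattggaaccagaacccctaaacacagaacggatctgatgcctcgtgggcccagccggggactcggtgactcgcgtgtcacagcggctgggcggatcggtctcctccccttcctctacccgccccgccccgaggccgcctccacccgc
Nrarp, chr2:25180508-25180757, plus strand: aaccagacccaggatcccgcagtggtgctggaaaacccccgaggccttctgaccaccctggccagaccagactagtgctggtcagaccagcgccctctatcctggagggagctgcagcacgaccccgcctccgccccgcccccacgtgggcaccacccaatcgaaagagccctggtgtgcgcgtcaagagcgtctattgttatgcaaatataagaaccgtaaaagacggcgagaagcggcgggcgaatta
Cd22, chr7:30879029-30879278, minus strand: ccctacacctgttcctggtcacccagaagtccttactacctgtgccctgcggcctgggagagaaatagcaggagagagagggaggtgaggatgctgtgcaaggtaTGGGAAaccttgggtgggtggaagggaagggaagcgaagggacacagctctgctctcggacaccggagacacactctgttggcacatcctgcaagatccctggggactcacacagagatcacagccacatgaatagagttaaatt
Fgl2, chr5:21372423-21372672, plus strand: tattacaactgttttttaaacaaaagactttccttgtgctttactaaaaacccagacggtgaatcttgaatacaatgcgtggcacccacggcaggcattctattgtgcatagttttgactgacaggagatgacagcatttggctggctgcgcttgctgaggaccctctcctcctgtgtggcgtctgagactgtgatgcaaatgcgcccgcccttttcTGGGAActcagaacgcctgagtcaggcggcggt
The Cd22 window held 1 match, at positions -145 to -140 from the listed start, and the Fgl2 window 1 match at -33 to -28. The Cd22 window lies inside the gene as annotated (30865404 to 30880342), so that it is not upstream of the whole gene. Most of the Dtx1 window also lies inside its gene, which is annotated up to 120711867. No match lay in these windows of Dtx1 and Nrarp, which says only that the letters are absent there. A match on either strand was held by 21.6% of all 32851 windows in that set. Counted by gene, 23.6% of the 15483 tested genes with an entry held a match in at least 1 of their windows. Of the genes lower in N1c_RBPJdel by at least 1 on the log2 scale, 13 of the 64 with an entry held a match (20.3%), and of those higher by as much 6 of 33 (18.2%). A match is a description of the letters and not a binding site.

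The deposited intensities were on a linear scale, with array medians of 107.1 to 116.3 over the 7 arrays, and correlations of log2 values among these arrays lay between 0.974 and 0.995. The interquartile range of log2 values was 2.49, 2.86 and 2.47 in N1c_RBPJdel arrays 1, 2 and 3, against 2.57 to 2.97 in the N1c arrays, so that arrays 1 and 3 of N1c_RBPJdel had the narrowest spread of levels. Every difference below is N1c_RBPJdel minus N1c on the log2 scale with its standard error (SE), and a gene is called past the test at an adjusted p below 0.05 by limma over 19752 genes. The p-values rest on the variation of arrays from pools of mice. Treg identity markers were bright in both groups. Foxp3, the transcription factor that defines Treg, read 4290.3, 4943 and 3543 in N1c_RBPJdel and 4865, 4457, 4018 and 4079 in N1c. The Foxp3 difference was -0.04 ± 0.13 (95% confidence interval -0.32 to 0.23, adjusted p = 0.877), and its sign turned to 0.03 after quantile normalization and 0.12 after cyclic loess.

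Of the 19752 genes, 1823 (9.23%) passed the test, 905 higher (4.58%) and 918 lower (4.65%) in N1c_RBPJdel. The strong changes were mostly falls: 145 genes (0.734%) passed with a difference of at least 1, and 98 of these were lower and 47 higher. Beyond 1.5 there were 41 falls and 7 rises. The direction of the weaker calls followed the level of the gene. Among genes brighter than the median gene 253 were higher and 839 lower, and among dimmer genes 652 were higher and 79 lower, with median differences of -0.09 and 0.11. After quantile normalization of the arrays this split became 452 and 440 among bright genes and 269 and 204 among dim ones. Of the 1823 calls, 1014 were made in the same direction after quantile normalization, and of the 145 strong ones 138. The count was 903 without N1c_RBPJdel array 1, 3058 without its array 2, 964 without N1c array 1 and 932 without N1c array 2. In 17 alternative settings, 261 genes passed in the same direction in every setting that held them, 119 higher and 142 lower, 96 of them by at least 1. The plot of change against level shows both the tilt and the genes that stand away from it.

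**Figure D1:**
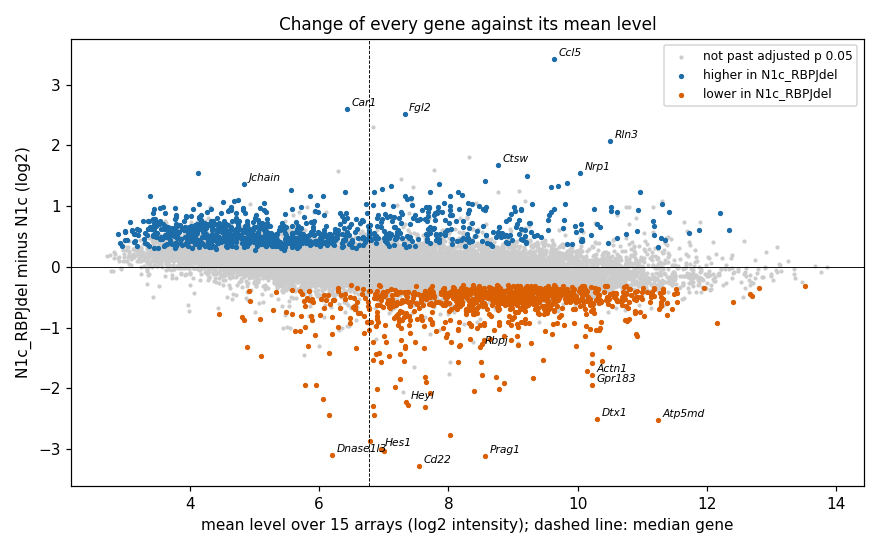
Each point is a gene, with its mean log2 intensity over 15 arrays on the horizontal axis and the log2 difference N1c_RBPJdel minus N1c on the vertical axis. Blue points are the 905 genes higher and orange points the 918 genes lower past an adjusted p of 0.05. Weak calls are mostly higher left of the dashed line (the median gene) and mostly lower right of it, and the labelled genes lie outside both bands.

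Rbpj itself was lower in the N1c_RBPJdel arrays. Its feature read 175, 258 and 201 in N1c_RBPJdel and 528, 572, 500 and 489 in N1c, and the groups did not overlap. Across all genes 16.4% had non-overlapping arrays. Rbpj fell by 1.32 ± 0.13 (adjusted p = 7.8e-06) and passed in all 17 alternatives, with differences of -1.47 to -0.54. The weakest, -0.54, arose when both features that name Rbpj were averaged, since the dimmer feature, with a mean intensity of 56.2 against 358, did not fall (0.23). Mean Rbpj levels were 497 in control and 267 in RBPJdel arrays. The mean in N1c_RBPJdel arrays was 209. Where the probes lie relative to the deleted part of the gene was not tested, so that this remaining level is no measure of cells that kept Rbpj.

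Proteins that make, cut and relay Notch come next. The list of receptors, ligands, processing enzymes and cofactors had 34 measured members, of which 0 were higher, 2 lower and 32 not past the test by limma, beside 9.23% of all genes past it (8 lower and 3 higher at an unadjusted p below 0.05), with a median difference of -0.10 beside 0.02 for all genes. The members past the test were Mib1, a ubiquitin ligase that acts on Notch ligands (-0.46 ± 0.13, adjusted p = 0.0367), and Spen, a corepressor that binds RBPJ (-0.61 ± 0.18, adjusted p = 0.0454). Their arrays overlapped between the groups, and after quantile normalization neither passed while Lfng, a glycosyltransferase that modifies Notch, was the single member higher. Without N1c_RBPJdel array 1, N1c array 1 or N1c array 2 the count of lower members was 0, and without N1c_RBPJdel array 2 it was 5. Notch1, the receptor whose active form is expressed in all 7 arrays, read 896, 1239 and 922 in N1c_RBPJdel against 1459, 1582, 1019.8 and 1044 in N1c, and the groups overlapped. Its difference was -0.31 ± 0.2 (95% confidence interval -0.73 to 0.1, adjusted p = 0.333). Whether the probes for Notch1 read the transgene was not tested.

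The classical Notch targets included some of the largest falls. Of 16 listed targets 14 were measured, and 5 were lower, 0 higher and 9 not past the test by limma. Over all genes 4.65% were lower and 4.58% higher. At an unadjusted p below 0.05 there were 6 lower and 0 higher. The list median was -0.28, and leaving out single arrays gave 5 or 6 lower members. Hes1, a transcriptional repressor, read 62.9, 108 and 70.6 in N1c_RBPJdel and 457, 412, 1064 and 764 in N1c. It fell by 3.00 ± 0.26 (adjusted p = 1.7e-06), to a mean of 78.3 beside 65.6 in control arrays. Hey1, a related repressor, read 114, 149 and 125 against 454, 423, 452 and 518, and thus fell by 1.84 ± 0.13 (adjusted p = 9.2e-08). Heyl, of the same family, read 114, 120.1 and 120.1 against 624, 479.5, 585 and 538. For all 3 genes the groups were far apart, and Heyl fell by 2.23 ± 0.11 with an adjusted p of 3.4e-09.

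Dtx1 and Nrarp behaved differently from each other in their distance to the control level. Dtx1 read 629.6, 1276 and 630.3 in N1c_RBPJdel and 5277, 5284, 4060.4 and 3742 in N1c. Dtx1 fell by 2.51 ± 0.23 (adjusted p = 2e-06), to a mean of 797, which lies below the 1639 of control arrays and above the 378 of RBPJdel arrays. N1c_RBPJdel array 2 had the highest Rbpj, Dtx1, Hes1 and Hey1 readings of its group, while Heyl read 120.1 in arrays 2 and 3. Array 2 was also highest for Foxp3 (4943) and Myc (1518), which did not pass, and for Ccl5 (3237), which rose. It was lowest for others, such as Tubb2b (126). Its interquartile range of log2 values was 2.86, against 2.49 and 2.47 in arrays 1 and 3. A link to the Rbpj reading was not tested. Nrarp read 89.9, 97.9 and 64.7 against 257, 329, 247 and 156, without overlap. Its fall of 1.53 ± 0.24 (adjusted p = 0.000845) led to a mean of 82.9, beside 86.5 in control arrays, and the call was lost only without N1c_RBPJdel arrays 1 and 3 together (adjusted p = 0.0549). The promoter windows of both are printed above and hold no core motif.

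**Figure D2:**
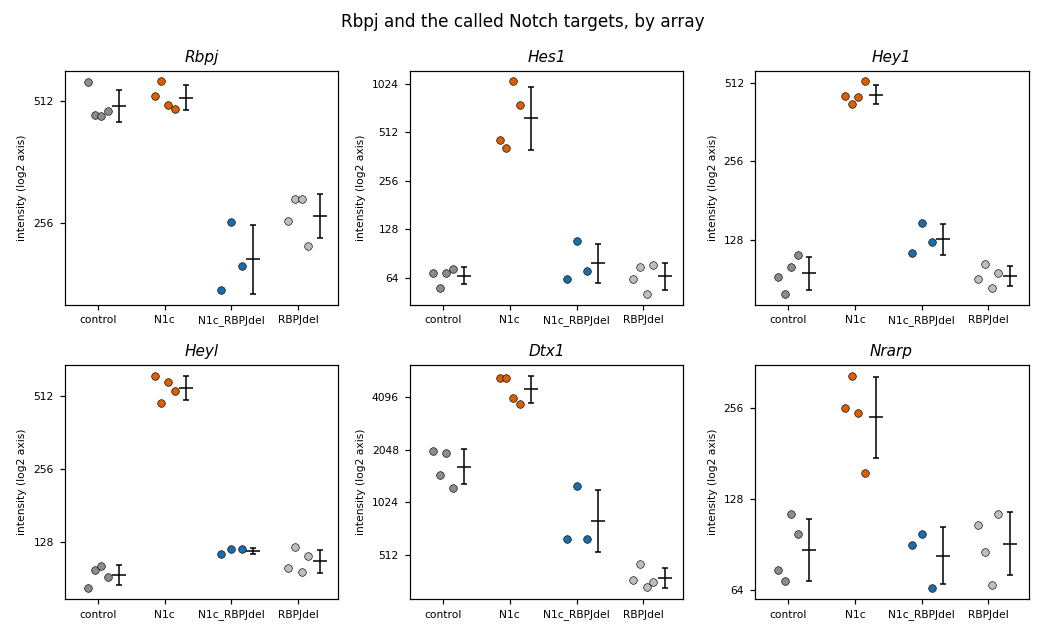
Intensity (log2 axis) of Rbpj and the 5 Notch targets past the test in each of 15 arrays, by genotype, with the mean of log2 values and 1 SD beside the points. In every panel the 3 N1c_RBPJdel arrays lie below the 4 N1c arrays, and for Dtx1 their mean lies between the means of RBPJdel and control.

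The remaining 9 targets include genes best known from thymocytes and leukaemia. Hes5, Hey2, Notch3 and Ptcra, the pre-T cell receptor alpha chain, had means of at most 207 in every group. Their differences were -0.16, -0.31, 0.13 and 0.10, and that of Ptcra turned to -0.01 without N1c_RBPJdel array 3. Hey2 had means of 37.8 in N1c_RBPJdel, 46.8 in N1c, 29.7 in control and 29.9 in RBPJdel arrays (adjusted p = 0.205), and passed as a lower target after quantile normalization (-0.44, adjusted p = 0.0467) and cyclic loess (-0.46, adjusted p = 0.0405). Myc, the growth regulator, read 1252, 1518 and 942 against 1248, 1131, 1009.9 and 1109, with a difference of 0.12 ± 0.14 (adjusted p = 0.657) that turned to -0.05 without N1c_RBPJdel array 2. Its means were 1214 and 1121 in the groups compared and 1631 in control arrays. The transcription factors Gata3 (-0.25 ± 0.16, adjusted p = 0.337) and Runx1 (-0.30 ± 0.14, adjusted p = 0.182), the cyclin Ccnd1 (-0.10 ± 0.1, adjusted p = 0.571) and the interleukin 2 receptor chain Il2ra (-0.15 ± 0.11, adjusted p = 0.421) did not pass either. The signs of these 4 differences each turned in 1 alternative. Runx1 passed as lower without N1c_RBPJdel array 2 (-0.49, adjusted p = 0.0162).

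Outside the Notch list, the largest falls were of a receptor, a scaffold protein and several enzymes. Cd22, an inhibitory lectin receptor best known on B cells, read 130.5, 195 and 115 in N1c_RBPJdel and 1095, 1313, 1390.2 and 1814 in N1c, and fell by 3.27 ± 0.17 (adjusted p = 4.8e-09). Of the other 11 B cell markers 5 passed the test as higher, as given further on. Prag1, a scaffold pseudokinase, read 169, 313 and 153 against 2045, 1743, 1678 and 1534 (-3.12 ± 0.19). Atp8a2, a phospholipid flippase, read 73.3, 76.4 and 88.5 against 675, 799, 653 and 500.2 (-3.03 ± 0.13) and had the smallest adjusted p of all the genes named here, 3e-10. Dnase1l3, a secreted DNase, read 42.7, 67.4 and 36.6 against 565, 329.8, 312 and 465 (-3.10 ± 0.2). Genes ranked here by fall or rise were chosen among those without overlap of arrays, so that its absence is no result. The control means of these 4 genes were 86.1, 340.1, 68.0 and 37.2.

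Further falls included enzymes, channels and a cytoskeletal gene. Pde3b, a phosphodiesterase that breaks down cyclic AMP, read 100.2, 68.9 and 65.4 against 1148, 375, 484 and 456 (-2.86 ± 0.27). Tubb2b, a beta tubulin, read 179, 126 and 130.1 against 892, 816, 1082 and 1173 (-2.77 ± 0.19). In Slc16a5, a monocarboxylate transporter, readings were 84.4, 90.7 and 72.0 against 597, 499, 448 and 285 (-2.43 ± 0.19). That no arrays overlapped was again a condition of the choice. Naip5, a sensor of bacterial flagellin, read 119, 139 and 128 against 563, 636, 679 and 679 (-2.31 ± 0.14), although several near-identical Naip genes may share its reads. Gjb2, the gap junction protein connexin 26, read 115, 132 and 126 against 659, 449, 548 and 821 (-2.28 ± 0.16). Fhdc1, a formin, read 42.7, 48.2 and 42.4 against 334, 306, 106 and 302 (-2.43 ± 0.27), and N1c array 4 was the low one of its group. Adjusted p-values of these 6 genes lay between 2.7e-08 and 3.1e-05, and all 6 passed in every alternative that held them.

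Il10 and Atp5md stand apart among the falls. Il10, the suppressive cytokine, read 77.1, 137 and 69.3 against 322, 212, 649 and 848, so that N1c arrays 4 and 5 were far above arrays 1 and 2. In control arrays 2, 3, 4 and 5 Il10 read 60.3, 58.1, 77.1 and 174. It fell by 2.29 ± 0.42 (adjusted p = 0.00315), and the call was lost without N1c_RBPJdel arrays 1 and 3 (adjusted p = 0.157). Atp5md, a minor component of mitochondrial ATP synthase, read 755, 708 and 588 in N1c_RBPJdel and 4239, 3579, 4079 and 3722 in N1c, and fell by 2.52 ± 0.15 (adjusted p = 2e-08). Its means were 2912 in control and 3176 in RBPJdel arrays, so that the 3 N1c_RBPJdel arrays were low against every other array of the series. The other 32 measured members of the oxidative phosphorylation list did not pass the test, the list median was -0.14, and the members' differences reached from -2.52 to 0.23.

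Rises of this size were fewer. Ccl5, a chemokine of effector and CD8 T cells, read 2322, 3237 and 1963 in N1c_RBPJdel and 166, 317, 246 and 215 in N1c, a rise of 3.42 ± 0.26 (adjusted p = 3e-07). Its means were 547 in control and 1694 in RBPJdel arrays. Fgl2, a secreted suppressive mediator of Treg, read 339, 340.3 and 321 against 37.0, 74.5, 72.0 and 57.9 (2.52 ± 0.2, adjusted p = 4e-07). Mean Fgl2 was 151 in control and 270 in RBPJdel arrays, so that N1c was the lowest group and N1c_RBPJdel the highest. Rln3, a relaxin family peptide, read 2764, 3170.2 and 2455 against 772, 590.1, 843 and 506 (2.07 ± 0.24, adjusted p = 4.8e-05). Ctsw, a cathepsin of cytotoxic lymphocytes, read 589, 856 and 498 against 199.5, 176, 247 and 176 (1.67 ± 0.17, adjusted p = 6.8e-06). The groups were clear of each other in these 4 genes, as the choice of leading rises required.

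Nrp1 and Itgb1 were close to the control level once Rbpj was deleted. Nrp1, a semaphorin coreceptor that marks thymus-derived Treg, read 1206, 1502 and 1352 in N1c_RBPJdel and 427, 514, 509 and 403 in N1c (1.55 ± 0.13, adjusted p = 1e-06). Its mean of 1348 compares with 1358 in control arrays. Itgb1, the integrin beta 1 chain, read 869, 1041 and 1116 against 433, 444, 408 and 341 (1.31 ± 0.16, adjusted p = 7.3e-05), with a control mean of 868. Il18r1, a chain of the interleukin 18 receptor, read 901, 697 and 814 against 277, 373, 255 and 250.4 (1.49 ± 0.18, adjusted p = 5.5e-05). Absence of overlap was required for these genes to be chosen as well. Among the remaining leading rises were Cbx7, a Polycomb reader (1.38 ± 0.3), Raph1, a regulator of actin at the cell edge (1.36 ± 0.15), Pglyrp1, a peptidoglycan recognition protein (1.34 ± 0.16), and Ttc39c, whose role is not well known (1.34 ± 0.14). The call of Cbx7 was lost with array weights and without N1c_RBPJdel arrays 1 and 3, and those of the other 3 genes were made in all alternatives.

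**Figure D3:**
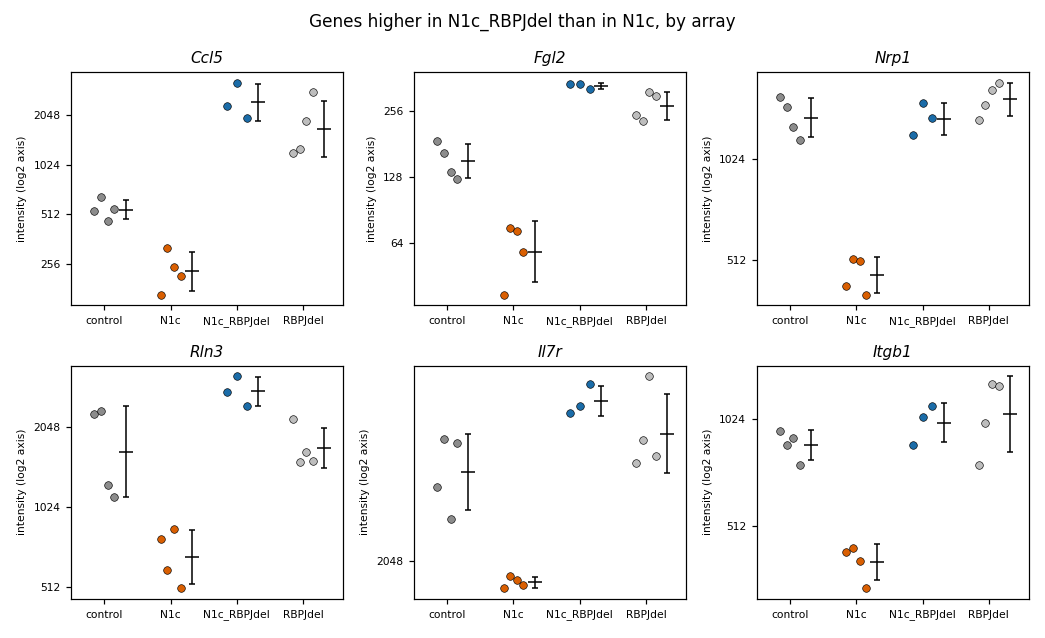
Intensity (log2 axis) of 6 genes higher in N1c_RBPJdel than in N1c, in each of 15 arrays by genotype, with the mean of log2 values and 1 SD beside the points. The 4 N1c arrays are the lowest of the series for every gene shown, and the N1c_RBPJdel arrays reach the control level (Nrp1) or lie above it (Ccl5, Fgl2).

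A smaller set of genes differed between N1c_RBPJdel and N1c although the means of N1c and control lay within 0.3 of each other on the log2 scale. Counting genes past the test without overlap of arrays, falls of at least 1 in this set were 3: Rbpj, Foxn3 and Hivep2. Foxn3, a forkhead repressor, read 626, 526 and 690.1 in N1c_RBPJdel and 1321, 1283, 1229 and 1563 in N1c (-1.14 ± 0.13, adjusted p = 4.8e-05), with means of 1433 in control and 1096 in RBPJdel arrays. Hivep2, a zinc finger transcription factor, read 722, 882 and 921 against 1681, 1937, 1483 and 1641 (-1.0 ± 0.11, adjusted p = 3.2e-05), beside 1499 and 1212. For both genes the N1c_RBPJdel arrays were the lowest of the 4 groups by mean. Rises of this kind were 10. Sapcd1 read 303, 202 and 184 against 88.6, 92.5, 96.9 and 91.7 (1.28 ± 0.26), Rhoc, a small GTPase of the cytoskeleton, 271, 352 and 229 against 112, 115, 131 and 154 (1.14 ± 0.14), and Terc, the RNA of telomerase, 3609.9, 4415 and 3192 against 1845, 1745, 2391 and 793 (1.24 ± 0.36). Means in control and RBPJdel arrays were 95.1 and 147 for Sapcd1, 143 and 194 for Rhoc, and 1451 and 2219 for Terc. For each gene the RBPJdel mean thus lay between the means of control and N1c_RBPJdel. Single RBPJdel arrays spread widely for Sapcd1 (70.7, 194, 199 and 171) and Terc (1614, 1823, 2072 and 3973), and less for Rhoc (199, 209, 181 and 188). The Terc call held in only 7 of 17 alternatives and that of Sapcd1 in 14.

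The other leading genes of this set are not typical of T cells. Car1, the carbonic anhydrase of red cells, read 852, 400.0 and 137 in N1c_RBPJdel arrays 1, 2 and 3 and 49.9, 51.4, 64.4 and 75.3 in N1c. Its rise was 2.60 ± 0.37 (adjusted p = 0.000352) and 1.98 without N1c_RBPJdel array 1, and the highest control or RBPJdel reading was 71.8. Jchain, the joining chain of secreted antibodies, read 72.5, 54.5 and 44.7 against 19.4, 23.8, 22.8 and 21.8 (1.36 ± 0.14, adjusted p = 1e-05). H2-Ea, an MHC class II chain annotated as a transcribed pseudogene, read 110, 91.3 and 74.9 against 38.1, 37.5, 33.7 and 42.3 (1.27 ± 0.12, adjusted p = 3.8e-06). In all 3 genes array 1 was highest and array 3 lowest of the N1c_RBPJdel arrays. The part of other cells in these rises was not tested, and marker values for such cells are given further on.

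Genes of Treg identity moved in both directions. Of 24 measured members 8 were higher and 3 lower, and 13 did not pass, with a list median of -0.05. Over all genes 4.58% were higher and 4.65% lower, and these shares also stand beside the counts of every list that follows. The higher members, from 0.48 to 1.55, were Nrp1, Flicr, Tnfrsf4, Ecm1, Socs2, Capg, Tnfrsf18 and Itgb8. Flicr, a long non-coding RNA beside Foxp3, read 729.8, 688 and 563 in N1c_RBPJdel and 318, 314, 332 and 311 in N1c (1.04 ± 0.14, adjusted p = 0.000197), and its groups did not overlap. Ecm1, an extracellular matrix protein that T cells also make, read 2049, 2554 and 2071 against 1345, 927, 1073 and 1355 (0.93 ± 0.19, adjusted p = 0.00603). The lower members were the chromatin organiser Satb1, the forkhead factor Foxo1 and Cbfb, a partner of Runx proteins. Satb1 read 1259, 1384 and 1155 against 2356, 2097, 2274 and 1779.6 (-0.74 ± 0.11, adjusted p = 0.000614), with 2708 in control and 1952 in RBPJdel arrays. Higher members numbered 6 to 8 when single arrays were left out, and lower members 1 without N1c_RBPJdel array 1 or 3 or N1c array 1 or 2, and 5 without N1c array 5. Ikzf2, the Helios factor, differed by 0.08 ± 0.13 (adjusted p = 0.733, from -0.10 to 0.24 over the alternatives) and Ctla4, the inhibitory receptor, by -0.44 ± 0.17 (adjusted p = 0.113).

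Mediators of suppression split evenly. Among 19 measured members 4 were higher and 4 lower, with a median of 0.03. Fgl2, Ctsw, the death ligand Tnfsf10 (0.95 ± 0.16) and the protease Lgmn (0.52 ± 0.14) were higher. The lower ones were Il10, Fasl, Gzmb and the pore protein Prf1 (-0.63 ± 0.15). Fasl, the ligand of the death receptor Fas, read 106, 80.1 and 108 against 264, 212, 334 and 248 (-1.43 ± 0.17, adjusted p = 5e-05), with a control mean of 91.1, and was the single member of the apoptosis list past the test among 20 measured. Gzmb, a cytotoxic protease, read 237, 391 and 199.8 against 825, 459.9, 866 and 1154 (-1.57 ± 0.27, adjusted p = 0.00206), and lost its call without N1c_RBPJdel arrays 1 and 3 (adjusted p = 0.157). Between the groups neither Fasl nor Gzmb overlapped. The genes of Treg-derived cytokines Tgfb1 (0.11 ± 0.12) and Ebi3 (0.42 ± 0.17) and of the ectoenzymes Entpd1 (-0.22 ± 0.12) and Nt5e (0.18 ± 0.13) did not pass.

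Of 22 measured co-inhibitory and co-stimulatory receptors, 8 were higher and 3 lower, with a median of -0.01. The higher ones were Cd200r1, Tigit, Klrg1, Tnfrsf4, Pdcd1, Tnfrsf18, Cd200 and Cd244a, from 0.46 to 1.06, and 5 members were higher without N1c_RBPJdel array 1 or without N1c array 2. Cd200r1, an inhibitory receptor for CD200, read 362, 413 and 529 against 226, 196, 188 and 212 (1.06 ± 0.15, adjusted p = 0.000291). Tigit, an inhibitory receptor for poliovirus receptor family ligands, read 2104, 2488 and 2047 against 1207, 1049.8, 879 and 1364 (0.99 ± 0.14, adjusted p = 0.000375). The arrays of these genes did not overlap. On the lower side Cd160, an HVEM receptor, read 91.2, 140.2 and 88.9 against 328, 314, 296 and 222 (-1.46 ± 0.16, adjusted p = 2.1e-05). Cd28, the main costimulatory receptor of T cells, read 1866, 2116 and 2005 against 3145, 3427, 2932 and 2882 (-0.63 ± 0.09, adjusted p = 0.000341), with control arrays at a mean of 2559. Cd226, an activating receptor that shares ligands with Tigit, fell by 0.40 ± 0.12 (adjusted p = 0.0364), a call made in 6 of 17 alternatives.

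Adhesion and homing genes changed in both directions too. In the integrin and adhesion list 6 of 19 measured members were higher and 2 lower, with a median of 0.14. Itgb1 was higher together with the alpha chains Itga1 (0.65 ± 0.13) and Itga2 (0.78 ± 0.18) that pair with it in collagen receptors, and with L1cam, Icam1 and Itgb8. L1cam, an adhesion molecule of neurons and some leukocytes, read 277, 348 and 260 against 166, 110.2, 104 and 149.8 (1.17 ± 0.15, adjusted p = 0.000118). Itgae, the alpha E chain that binds E-cadherin, read 284, 364 and 289.6 against 575, 694, 759 and 833 and fell by 1.19 ± 0.15 (adjusted p = 0.000117), to a mean of 310.3 beside 322 in control arrays. Itga6, a laminin receptor chain, fell by 0.67 ± 0.14, and without N1c_RBPJdel array 2 the lower members numbered 4.

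Among chemokine and homing receptors 5 of 20 were higher and 2 lower, with a median of -0.01. Gpr183, the oxysterol receptor that positions lymphocytes at follicle borders, read 814, 1049.5 and 679 against 3226, 3043, 3348 and 3270.5 (-1.95 ± 0.15, adjusted p = 3.8e-07). Gpr15, a receptor for homing to the colon, read 146, 125 and 157 against 188, 254, 288 and 301 (-0.84 ± 0.14, adjusted p = 0.00133). Both were without overlap between the groups. The higher receptors Ccr2, Ccr3, Ccr6, Ccr8 and Cxcr3 rose by 0.86 to 1.04. Ccr6 read 318, 377 and 290.3 against 195, 208, 145 and 177, and its mean of 326 compares with 314 in control arrays. Ccr3 read 162, 303 and 197 against 111, 93.6, 104 and 108 (1.04 ± 0.17, adjusted p = 0.00146), and control and RBPJdel means were 104 and 126. Ccl5 was the single higher member of 10 measured chemokine ligands, beside 0 lower.

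Cytokine receptors showed 6 higher and 6 lower members of 23 measured, with a median of 0.12. The interleukin 18 receptor chains rose together, Il18r1 as given above and Il18rap at 152, 157 and 188 against 87.3, 95.9, 69.2 and 75.8 (1.02 ± 0.16, adjusted p = 0.000657). Il7r, the receptor for a survival cytokine of resting T cells, read 3415, 3490.2 and 3773 against 1867, 1949, 1918 and 1885 (0.90 ± 0.12, adjusted p = 0.00013). Il9r read 262, 327 and 244 against 136, 127, 143 and 158 (0.97 ± 0.15, adjusted p = 0.000626). No array of one group reached the other group in these 4 genes. Il6st, the shared signalling chain of the interleukin 6 family, read 1223, 1468 and 1415 against 2474, 2984, 2043 and 2119 (-0.80 ± 0.13, adjusted p = 0.000852), and Il6ra fell as well (-0.46 ± 0.14, adjusted p = 0.0408). The other lower members were Il12rb2 (-0.88), Il1r2 (-0.81), Il21r (-0.56) and Il10ra (-0.53). The count of lower members was 3 without N1c_RBPJdel array 1 or array 3.

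Of 25 measured helper lineage factors and cytokines, 1 was higher and 4 lower (5 and 7 at an unadjusted p below 0.05). Rora, a nuclear receptor of several helper lineages, read 424, 462 and 479.6 against 288, 259.5, 319 and 352 (0.59 ± 0.13, adjusted p = 0.00897). Ahr, the aryl hydrocarbon receptor, read 319, 395 and 318 against 476, 454, 466 and 479 (-0.45 ± 0.099, adjusted p = 0.00927). Il4, the cytokine of type 2 help, was dim at 51.6, 58.1 and 55.1 against 88.8, 71.3, 67.9 and 99.6 (-0.56 ± 0.13, adjusted p = 0.0109). Stat5b and Maf were lower by -0.43 and -0.53. Lower members numbered 2 after quantile normalization, and 2 without N1c_RBPJdel array 1 or 3 or N1c array 1 or 2. Tbx21, the type 1 factor, differed by 0.48 ± 0.19 (adjusted p = 0.122) and Ifng, its target cytokine, by -0.56 ± 0.4 (adjusted p = 0.398), with N1c arrays 4 and 5 at 385 and 442 and arrays 1 and 2 at 130 and 123.

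Genes of resting T cells had 6 lower and 1 higher of 17 measured, with a median of -0.38. Il7r was the higher one. Actn1, an actin crosslinker, read 662, 746 and 597 against 2558, 2240.4, 2141 and 2190.4 (-1.78 ± 0.13, adjusted p = 2.8e-07), and lay below the control mean of 1298. Lef1, a partner of beta-catenin in naive T cells, read 1856, 2202 and 1866 against 3253, 2928, 2938 and 3705 (-0.70 ± 0.11, adjusted p = 0.000872). Satb1, Btg1 (-0.57), Klf3 (-0.58) and Foxo1 (-0.43) completed the lower members. Single arrays left out gave 5 to 8 of them, and quantile normalization 5. Ccr7, the lymph node homing receptor, differed by -0.15 ± 0.12 (adjusted p = 0.448) and S1pr1, the egress receptor, by -0.14 ± 0.12 (adjusted p = 0.483).

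Signalling from the T cell receptor was represented by 27 measured genes, of which 4 were lower and 0 higher by limma (15 and 0 at an unadjusted p below 0.05), with a median of -0.28. Fyn, a Src family kinase, read 1278, 1549 and 1358 against 2696, 2981, 2009 and 1917 (-0.76 ± 0.15, adjusted p = 0.00459). The adaptor Grap2 read 1328, 1449 and 1278 against 1893, 2063, 1933 and 1849.6 (-0.52 ± 0.095, adjusted p = 0.00305). Zap70, the kinase that binds the receptor's zeta chain (-0.50 ± 0.13), and the adaptor Lat (-0.43 ± 0.11) passed in 8 alternatives each. After quantile normalization 2 members were lower, and leaving out N1c_RBPJdel array 1, N1c array 1 or N1c array 2 gave 2 as well. Without N1c_RBPJdel array 2 there were 10 and without N1c array 5 there were 7. In the PI3K, Akt and mTOR list 3 of 24 were lower, beside 4.65% of all genes. The count was 1 after quantile normalization and 7 without N1c_RBPJdel array 2. Sgk1, a kinase downstream of mTOR complex signalling, read 123, 125 and 91.1 against 326, 224, 311 and 278 (-1.33 ± 0.23, adjusted p = 0.00215), while Pik3cg (-0.48) and Rictor (-0.36) fell less.

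Immediate early genes, which mark recent stimulation or handling of cells, varied widely between arrays. Of 21 measured members 2 were lower, Egr1 (-0.51 ± 0.14, adjusted p = 0.0324) and Zfp36 (-1.03 ± 0.31, adjusted p = 0.0454), beside 4.65% of all genes. The median was -0.41 and 0 passed after quantile normalization. Zfp36 read 879.6, 1007 and 783 in N1c_RBPJdel and 1365, 1112, 2876 and 2472 in N1c, so that its difference lay mainly in N1c arrays 4 and 5. Control arrays 4 and 5 were also high, at 1582 and 2455, beside 1005 and 991 in control arrays 2 and 3. Fosb (-1.77, adjusted p = 0.189), Fos (-1.56, adjusted p = 0.356) and the heat shock gene Hspa1a (1.60, adjusted p = 0.318) had large differences that did not pass. The list count was 0 without N1c_RBPJdel array 1 or 3 or N1c array 4 or 5 and 1 without N1c array 1.

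The cell cycle list had the lowest median of all pathway lists, -0.69, with 12 members lower, 0 higher and 24 not past the test among 36 measured (27 lower and 1 higher at an unadjusted p below 0.05). Rrm2, a subunit of ribonucleotide reductase, read 115, 117 and 119 in N1c_RBPJdel and 413, 361, 184 and 277 in N1c (-1.34 ± 0.28, adjusted p = 0.00803). Kif11, a mitotic kinesin, read 102, 100.2 and 84.8 against 378, 324, 139.9 and 355 (-1.55 ± 0.42, adjusted p = 0.0282). Ccna2, cyclin A2, read 109.8, 123 and 78.9 against 526, 419.8, 229 and 408 (-1.89 ± 0.52, adjusted p = 0.0316). The groups did not overlap in these genes, yet N1c array 4 lay nearest to the N1c_RBPJdel arrays in each. Mki67, the proliferation marker, read 207, 270.2 and 259 against 630.1, 559, 244 and 551 (-0.94 ± 0.42) and did not pass (adjusted p = 0.159). The count of lower members depended on single arrays: 2 without N1c_RBPJdel array 1, 1 without its array 3, 2 without N1c array 1, 4 without N1c array 2 and 20 without N1c array 4. After quantile normalization 9 were lower and Cdc25b, a phosphatase at entry into mitosis, was higher. No member passed in every alternative. Control means were 171 for Rrm2, 112 for Kif11 and 133 for Ccna2.

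Replication-dependent histones, made as DNA is copied, were lower or not past the test. Of 34 listed genes 16 were measured, 4 were lower and 0 higher, with a median of -0.39. H1f1, a linker histone, read 192, 178 and 185 against 517, 387, 344 and 291 (-1.03 ± 0.14, adjusted p = 0.000323) and passed in all alternatives. H1f5 read 138, 241 and 172 against 678, 604, 296 and 297 (-1.28 ± 0.32, adjusted p = 0.0182). H2bc3 read 521, 454 and 324 against 1137, 682, 708 and 741 (-0.91 ± 0.25, adjusted p = 0.0293), and H2ac4 fell by 1.47 ± 0.44 (adjusted p = 0.0428). Histone genes are near-identical copies whose reads can be shared, so that the level of a single one is uncertain. The count was 2 without N1c_RBPJdel array 1 or 3 and 1 without N1c array 1.

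The remaining lists held few changes, beside 9.23% of all genes past the test. Of 23 genes of DNA methylation and Polycomb complexes, Cbx7 was higher, as given above, and the demethylase Kdm6b lower (-0.69 ± 0.17, adjusted p = 0.0167). Among 15 glycolysis genes Tpi1, an isomerase, was higher at 507, 619.9 and 549.6 against 357, 323, 421 and 417 (0.56 ± 0.11, adjusted p = 0.00495). Interferon response genes had 1 lower member of 26, the RNA sensor Ifih1 (-0.40 ± 0.1, adjusted p = 0.0225), and after quantile normalization 0 lower and 2 higher, Usp18 and Cmpk2. Ribosomal protein genes had 0 of 19 past the test in either direction by limma, 5 lower and 0 higher at an unadjusted p below 0.05, and differences from -0.43 to 0.06. These short counts moved with single arrays: Kdm6b was not called without N1c_RBPJdel array 1 or 3 or N1c array 1, the interferon list had 0 lower without N1c_RBPJdel array 1 or N1c array 1 or 2, and without N1c array 5 the oxidative phosphorylation and apoptosis lists each had 3 lower. The plot of list members shows all of them on 1 scale.

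**Figure D4:**
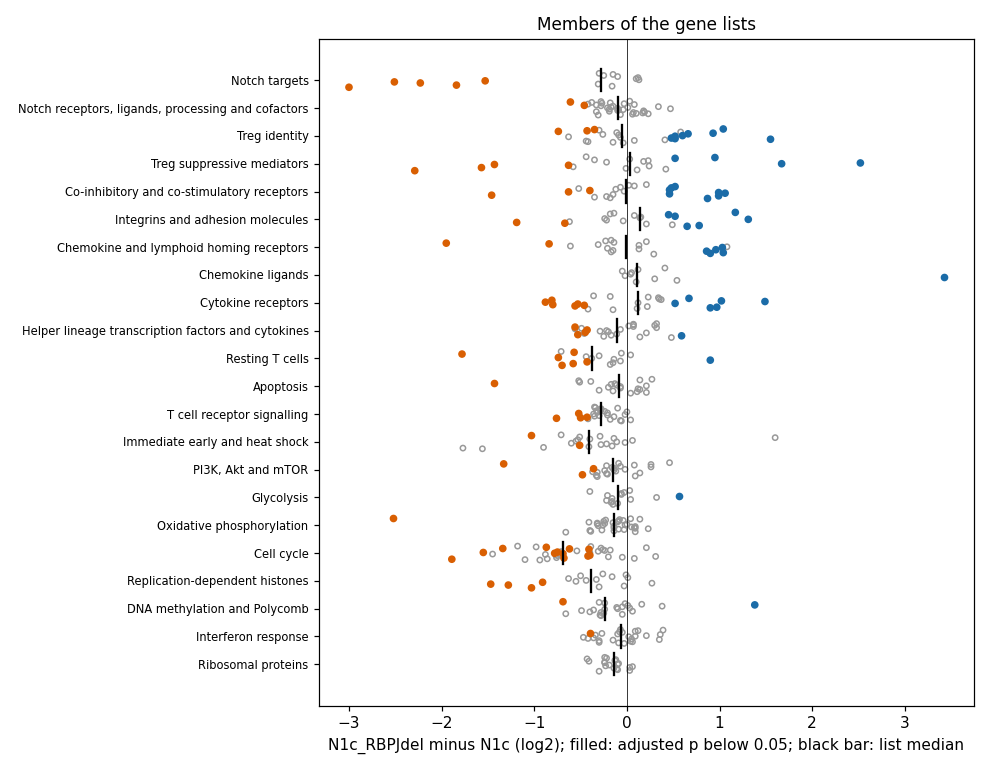
Each point is a measured member of a gene list, placed by its log2 difference N1c_RBPJdel minus N1c; filled points passed an adjusted p of 0.05 (blue higher, orange lower) and the black bar is the list median. Notch targets carry the 5 isolated falls from -1.53 to -3.00, cell cycle genes lie mostly left of 0, and receptor lists have filled points on both sides.

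Several markers of other cell types were higher in the N1c_RBPJdel arrays, most of them at low levels. None of the markers was at 0, since array intensities include background. Over all genes 4.58% were higher and 4.65% lower, and among genes dimmer than the median gene 652 were higher and 79 lower. Neutrophil markers had 6 higher and 0 lower of 13, and their summed intensity was 843 to 940.3 in N1c_RBPJdel and 579 to 761 in N1c. S100a9, a calcium-binding protein abundant in neutrophils, read 121, 88.2 and 108 against 52.5, 52.1, 57.4 and 64.2. Dendritic cell markers had 4 higher of 13, with sums of 2991 to 3961 against 2242 to 2774. Their sums were 2391 to 2772 in control and 2940 to 3579 in RBPJdel arrays. Cd74, the invariant chain of MHC class II, read 725, 795 and 445 against 185, 159, 301 and 359 (1.42 ± 0.25, adjusted p = 0.00215), with a mean of 500.3 in RBPJdel arrays. Cst3, the brightest marker of this list, had means of 1721 against 1316 and did not pass (adjusted p = 0.0883). Monocyte and macrophage markers had 3 higher of 15, with overlapping sums of 2113 to 2394 and 1792 to 2218. Rises called in every alternative numbered 3 for neutrophils, 1 for dendritic cells and 0 for monocytes and macrophages. After quantile normalization 5, 6 and 3 markers of these types were higher. No marker of these 3 cell types passed the test as lower, although the macrophage marker Cd68 read 139.7, 98.2 and 129 against 162, 145, 334 and 247 without overlap (-0.80 ± 0.33, adjusted p = 0.13).

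B cell markers other than Cd22 had 5 higher and 0 lower of 11, and 3 of these rises were called in every alternative. Their sums were 1279 to 1585 in N1c_RBPJdel and 879 to 1249 in N1c, beside 1096 to 1351 in control arrays. Cd79a, a chain of the B cell receptor, read 69.9, 57.5 and 50.1 against 23.7, 26.0, 29.9 and 34.5 (1.05 ± 0.14, adjusted p = 0.000209), and Ms4a1, which encodes CD20, 84.9, 50.4 and 44.2 against 31.4, 28.3, 28.6 and 28.8 (0.97 ± 0.17, adjusted p = 0.00227). Cd79a and Ms4a1 ran opposite to Cd22 and, like Jchain and H2-Ea, were highest in N1c_RBPJdel array 1 and lowest in array 3. The other called markers did not follow that order. Cr2 read 55.0, 38.4 and 56.4 in N1c_RBPJdel, Ebf1 41.7, 34.4 and 50.1, and Bank1 99.6, 127 and 109.8. Blk (-0.07) and Vpreb3 (0.03) hardly differed. Erythroid markers had 3 higher (Car1, Slc4a1 and Rhag) and 1 lower (the transferrin receptor Tfrc, -1.15 ± 0.15) of 9, with sums of 1727, 1091 and 878 in N1c_RBPJdel arrays 1, 2 and 3 against 791 to 968. The erythroid sums thus overlap, and array 1 is far above the rest. Of the erythroid rises 1, Car1, was called in every alternative.

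Markers of CD8 T cells had 3 higher of 9, Ccl5, Ctsw and Klrk1, and sums of 4161 to 6497 against 2164 to 2499. Most of this gap lay in 1 gene, Ccl5, at 2322, 3237 and 1963 against 166, 317, 246 and 215. The sums were 1947 to 2557 in control and 3504 to 5149.5 in RBPJdel arrays. Ccl5 and Ctsw were called in every alternative, Klrk1 in 14 of 16. The defining genes of that lineage did not pass the test: Cd8a read 91.3, 85.5 and 113 against 150.3, 135, 98.9 and 126 (-0.39 ± 0.19, adjusted p = 0.192), and Cd8b1 570.3, 588 and 504 against 555, 369, 455 and 417 (0.32 ± 0.14, adjusted p = 0.147). After quantile normalization 4 markers were higher by limma, Cd8b1 (adjusted p = 0.0492), Ccl5, Klrk1 and Ctsw, and 0 lower. Cd8a passed as lower in 1 of 17 alternatives. NK cell markers had 2 higher and 1 lower of 10, with sums of 504 to 544 and 506 to 686, and platelet markers 0 of 6 past the test by limma, with 2 lower and 2 higher at an unadjusted p below 0.05. Of the 6 markers of conventional CD4 T cells Il7r was the 1 past the test, and the sums were 6231 to 7016 against 4944 to 5232. Most of this gap lay in Il7r, at 3415, 3490.2 and 3773 against 1867, 1949, 1918 and 1885. The sums were 6409 to 7375 in control and 6862 to 7831 in RBPJdel arrays. Treg markers summed to 21529 to 24678 in N1c_RBPJdel and 24479 to 26369 in N1c, and among T cell markers 2 of 9, Cd28 and Lat, were lower. The part that other cells have in the rises was not tested.

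**Figure D5:**
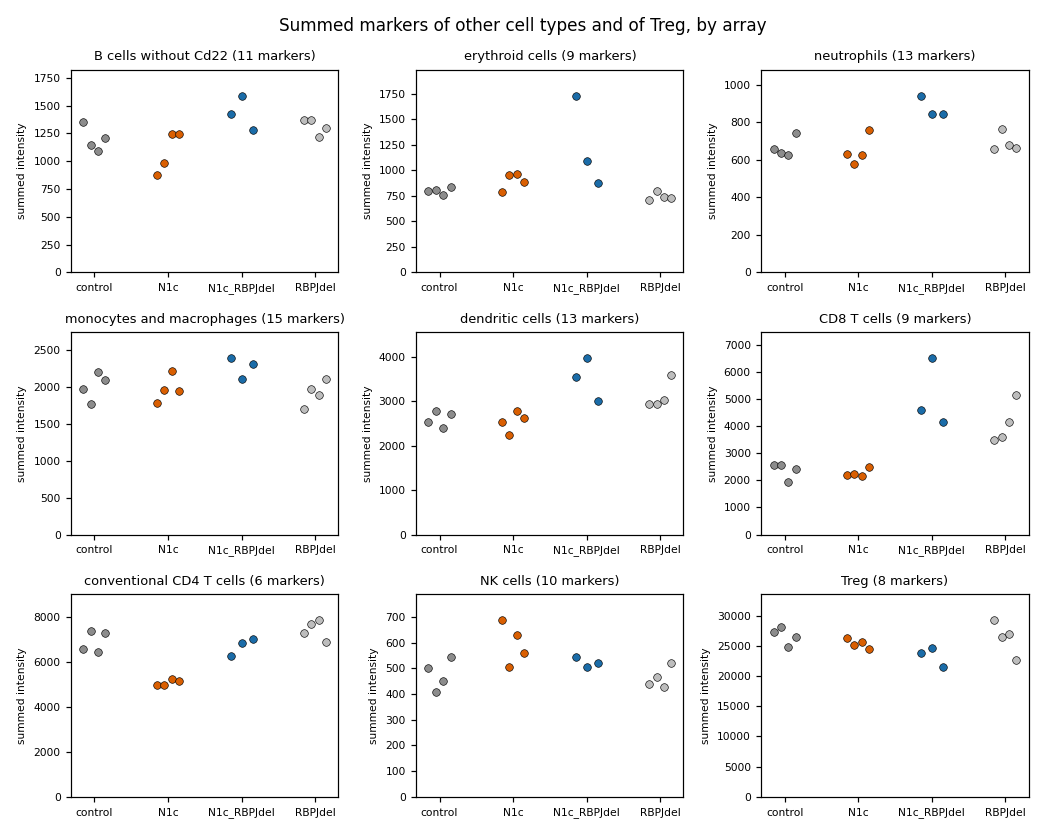
Summed intensity (linear axis from 0) of the measured markers of 9 cell types in each of 15 arrays, by genotype. The N1c_RBPJdel arrays are above all N1c arrays for B cells without Cd22, neutrophils, dendritic cells, CD8 T cells and conventional CD4 T cells, and overlap them for erythroid cells, monocytes and macrophages, NK cells and Treg. Most of the gap lies in Ccl5 for CD8 T cells and in Il7r for conventional CD4 T cells.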

How the data were processed

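The authors deposited linear array intensities, 1 per transcript cluster. The submitters' processing notes name RMA and Affymetrix Power Tools. For version, annotation release and filters the sources used here give nothing. There were 24922 features for 15 arrays, with intensities from 5.61 to 18029.7. Of the features 21425 named 1 gene, 1399 several and 2098 none, and those naming 1 gene were used, of which 21347 matched the RefSeq gene table (GRCm38.p6) by Entrez ID. For 921 genes with several features the one with the highest mean was kept, which left 19752 genes, none of them filtered for low intensity. List members whose features name several genes or none are not measured here.

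Deposited intensities were converted to log2 and fitted with limma 3.58.1 in R 4.3.3, with 1 mean for each of the 4 groups over all 15 arrays (11 residual and 6.15 prior degrees of freedom). All p-values are two-sided, with Benjamini-Hochberg adjustment over the whole set of genes and a threshold of 0.05. The code was tested on simulated data. The labels' protocols state pooled mice, and the number of arrays limits the precision. No pair of arrays was a duplicate.

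Named genes are Rbpj, Notch1, Foxp3, every measured Notch target, the 15 largest falls and 15 largest rises past the test without overlap of arrays, up to 3 members per other pathway list by smallest p, and up to 6 falls and 6 rises of at least 1 with N1c within 0.3 of control. Predicted genes, receptor gene segments, olfactory, vomeronasal and taste receptors and small RNAs were skipped in the choices by rank. Other list members, marker genes and genes not past the test were named after their values were seen. The groups, members, lists and tests were chosen with earlier results of these data known. Alternatives were quantile and cyclic loess normalization, a filter at the median gene, averaged features, both groups alone, array weights, a replicate block, an intensity trend and each array left out, and 2 were added after seeing the data.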

Additional observations from a re-analysis of the deposited data

Results flagged for a closer look

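Among the 85 named genes, 4 had 1 N1c array farther from the others than Dixon's test for 4 values allows at its 95% critical value. Chance gives this in about 1 in 20 groups, so that 4 of 85 is about the number that chance alone gives. Hes5 was lowest in array 2, at 178, with the other arrays at 193. Fhdc1 was lowest in array 4, at 106 against 302 to 334. Kif11 was lowest in array 4 as well, at 139.9 against 324 to 378. H2bc3 was highest in array 1, at 1137 against 682 to 741. The reasons were not tested.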

How the results depend on the processing

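Against 1823 genes past the test (905 higher, 918 lower), quantile normalization gave 1365 (721 and 644), cyclic loess 1241 with 595 lower, the filter at the median gene 1187 with 276 higher, and the arrays of both groups alone 561 (261 and 300). Leaving out 1 array gave 903 to 3058 genes, 446 to 1642 higher and 420 to 1416 lower. Of 2 settings chosen after seeing the data, leaving out N1c_RBPJdel arrays 1 and 3 gave 854 (531 and 323), the lone array being assumed to vary like the others, and leaving out N1c_RBPJdel array 1 and N1c array 5 gave 599 lower. The replicate block gave 3699 (1795 and 1904), with Notch1 past the test at -0.49. Only numbers 1 and 2 are shared by both groups, with correlations of residuals of -0.12 and 0.0639 between same-numbered arrays. These 2 pairs are too few to decide whether arrays of the same number belong together. For N1c and control arrays of the same number this was not tested. Array 5 had the lowest interquartile range of log2 values in both N1c (2.57) and control (2.7). No N1c_RBPJdel array has that number. Rbpj passed throughout. Of the 74 named genes past the test, 48 passed in every alternative that held them. None of these 74 changed direction. Signs of others turned: Foxp3, at -0.04, to 0.03 (quantile), 0.12 (cyclic loess), 0.08 (without N1c_RBPJdel array 3), 0.01 (without N1c array 1) and 0.19 (without N1c_RBPJdel arrays 1 and 3), Ptcra to -0.01 (without N1c_RBPJdel array 3), Myc to -0.05 and Ccnd1 to 0.00 (without N1c_RBPJdel array 2), Gata3 to 0.13 and Runx1 to 0.09 (without N1c_RBPJdel arrays 1 and 3), and Il2ra to 0.01 (cyclic loess). The differences of Ikzf2, Ccr7, S1pr1, Fos, Ifng and Tgfb1, not past the test, also crossed 0 in at least 1 alternative. With arrays left out the lowest Foxp3 value was -0.16, the highest Ptcra value 0.23, the highest of Myc 0.44 (0.30 with 1 array left out) and the lowest of Ccnd1 -0.31 (-0.19 with 1 array left out). For these changes the cause was not tested. The filter tests fewer genes, and dim genes, near the array background, are the least certain.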
